A study of Homo sapiens with 13 samples.

Results

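The sites described here are FOXA1 binding sites found in both Ishikawa and Hec1A, which are cell lines of endometrial cancer, and at which Hec1A had a relatively high signal. A shared site is a pair of peaks, 1 from each line, whose intervals overlap by 1 bp or more. A shared site was taken as a high-ratio site when its tag count in Hec1A was at least 0.6 times that in Ishikawa. The tag count is the authors' number of sequenced fragment ends in a peak per 10000000 tags of the pool. Of 7012 shared pairs outside the mitochondrial and Y chromosomes, 1209 met this rule, which is 17.2% of the pairs. They made up 9.12% of the 13252 Hec1A peaks and 2.20% of the 54855 Ishikawa peaks. The sites were chosen by their measured ratio of tag counts, so the ratio and every value made from the same tags are given as descriptions.

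FOXA1 is a forkhead transcription factor that can bind DNA on nucleosomes and open closed chromatin, which lets other factors bind beside it. In hormone-responsive tissues it prepares enhancers for steroid receptors such as the oestrogen receptor. Its sites differ between cell types because chromatin state and partner factors differ, and sites bound in more than 1 line often differ in strength.

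Chromatin was immunoprecipitated with the same FOXA1 antibody in both lines and sequenced (ChIP-seq). Ishikawa and Hec1A are established lines from human endometrial adenocarcinoma, and the labels name no treatment or genetic change. The Ishikawa list came from 6 pooled FOXA1 ChIP libraries with 343739762 tags and was filtered against 2 pooled libraries of input, which is chromatin without immunoprecipitation. The Hec1A list came from 3 pooled FOXA1 ChIP libraries with 143055568 tags, and its recorded command names no input. The name given to the deposited list refers to both labelled Hec1A inputs, so whether this list was filtered against input is unclear. Each line therefore has 1 list and no replicate error, and no test between the lines could be made. Whether the libraries of a line came from separate cultures is not given in the sources used here. Coordinates are those of hg19, in the Hec1A interval. No genes or DNA sequences are assigned, since an hg19 annotation and genome were not used here.

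The name of the group holds only in a relative sense. Over all shared pairs the median ratio was 0.283, so a ratio of 0.6 was high for a shared site. The Hec1A tag count was equal to or above that of Ishikawa at 459 of the 1209 high-ratio sites (38.0%), and Ishikawa was higher at the other 750. A ratio of 1 or more was met by 6.55% of all pairs. Peak width was fixed at 254 bp in Hec1A and 353 bp in Ishikawa, so tags were counted over a shorter stretch in Hec1A. Per bp of peak width the threshold of 0.6 corresponds to 0.834, and a threshold of 0.6 per bp would have admitted 2054 pairs (29.3%).

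High-ratio sites were weaker than other shared sites in Ishikawa and stronger in Hec1A, as the rule requires. Their Ishikawa tag count ranged from 2.56 to 161.1, with a median of 9.66. The median over the other 5803 shared pairs was 22.1. Their Hec1A tag count ranged from 2.10 to 167.8, with a median of 9.30 against 5.03. The Ishikawa median thus lay close to the 9.69 of the whole Ishikawa list, while the Hec1A median was above the 4.96 of the whole Hec1A list. These sites held 29.5% of the Hec1A signal in shared pairs and 6.32% of the Ishikawa signal in shared pairs.

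The ratio itself ran from 0.6 to 19.2, with quartiles of 0.699 and 1.27 around a median of 0.873. A ratio of 2 or more was reached by 117 sites and a ratio of 5 or more by 16. Depth limited how well a single site was placed. The median high-ratio site rested on 133 tags in Hec1A and 332 in Ishikawa. An exact 95% interval of each ratio, from the binomial distribution of tags between the lines, lay wholly at or above 0.6 for 804 sites (11.5% of all pairs) and reached below it for 405. It lay wholly at or above 1 for 324 sites (4.62% of all pairs). Among the pairs left out, the interval of 567 reached 0.6. These intervals cover counting error and take tags as independent, which repeated reads are not.

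The pairs at the threshold show how narrow that line is. Just inside were a site at chromosome 7, 94599114 to 94599368, with a tag count of 3.77 in Hec1A and 6.28 in Ishikawa, and a site at chromosome 7, 93812496 to 93812750, with 9.79 and 16.3. The third was at chromosome 5, 111748126 to 111748380, with 9.44 and 15.7. Just outside were sites at chromosome 16, 2509952 to 2510206, with 5.31 and 8.87, at chromosome X, 9842058 to 9842312, with 9.09 and 15.2, and at chromosome 19, 54311974 to 54312228, with 6.15 and 10.3. The counting interval of each of these 6 ratios included 0.6.

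**Figure D1:**
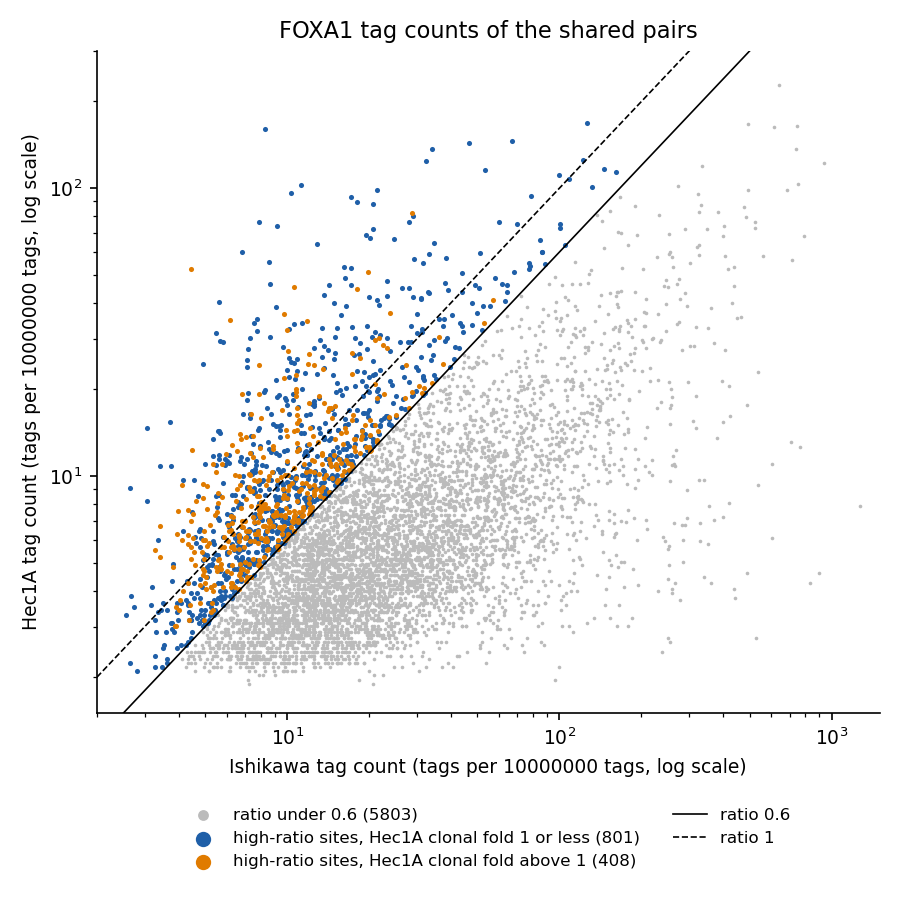
Each point is 1 of 7012 shared pairs, with the Ishikawa tag count on the horizontal and the Hec1A tag count on the vertical axis, both per 10000000 tags on log scales. High-ratio sites lie above the solid line of ratio 0.6 and are blue for a Hec1A clonal fold of 1 or less (801) and orange above 1 (408). The 459 sites on or above the dashed line had a tag count in Hec1A at least as high as in Ishikawa.

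Most high-ratio sites were among the weaker shared pairs of Ishikawa, which are close to the median of the whole Ishikawa list. When shared pairs were split into 4 equal parts by Ishikawa tag count, 746 high-ratio sites (61.7%) fell in the lowest part, of 2.56 to 11.3, where they were 42.5% of pairs. In the highest part, of 38.0 and above, 55 of 1747 pairs (3.15%) were high-ratio sites. The Ishikawa tag count is the denominator of the ratio that chose the sites, so this fall is a description of the rule and nothing is read from it. A pair also had to reach the Hec1A list, whose lowest tag count was 1.82. Any listed Hec1A peak would have given a ratio of 0.6 at an Ishikawa tag count under 3.03, which applied to 6 pairs.

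The high-ratio sites strongest in Hec1A differed widely in Ishikawa, where their tag counts ran from 8.32 to 161.1. Of the 10 high-ratio sites with the highest Hec1A tag count and a clonal fold of 1 or less in both lists, the first was at chromosome 3, 23136660 to 23136914. It had a tag count of 167.8 in Hec1A and 126.3 in Ishikawa, a ratio of 1.33 (95% counting interval 1.26 to 1.40). Its fold over the local region, the peak's tags relative to the surrounding 10000 bp, was 151.8 in Hec1A and 64.5 in Ishikawa. The peak thus stood far above its surroundings in both lists.

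Another of these sites lay at chromosome 6, 151712930 to 151713184, with 125.0 in Hec1A and 122.4 in Ishikawa, a ratio of 1.02 (0.966 to 1.08). Its tag counts did not differ beyond counting error, yet its fold over the local region was 130.2 in Hec1A and 40.4 in Ishikawa. The local background, computed as tag count divided by that fold, was 0.960 and 3.03 there. Sites at chromosome 20, 48983250 to 48983504, with 116.9 in Hec1A and 145.6 in Ishikawa, and at chromosome 3, 194754234 to 194754488, with 113.6 and 161.1, were the 2 of this set that were lower in Hec1A.

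The remaining sites of this set were higher in Hec1A. At chromosome 20, 52684230 to 52684484, the tag count was 145.3 in Hec1A and 66.8 in Ishikawa. At chromosome 7, 103301086 to 103301340, it was 143.0 and 46.4, a ratio of 3.08 (2.89 to 3.29). At chromosome 5, 162806633 to 162806887, it was 136.7 and 34.0, a ratio of 4.02 (3.74 to 4.33). In each of these 3 sites the fold over the local region was also higher in Hec1A, at 103.0, 88.4 and 102.3 against 45.1, 35.2 and 27.3. Sites at chromosome 9, 130717737 to 130717991, with 124.6 and 32.3, and at chromosome 3, 23782668 to 23782922, with 115.5 and 53.2, showed the same order in both measures.

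The highest ratio of all was at chromosome 17, 67758202 to 67758456, where the tag count was 160.1 in Hec1A and 8.32 in Ishikawa, a ratio of 19.2 (17.0 to 21.8). This site was also the second strongest by Hec1A tag count. In Ishikawa it was below the list median of 9.69 by tag count. By local fold it was above the Ishikawa list median of 6.93, with 7.23 there against 68.9 in Hec1A. It had passed the Ishikawa input filter, which required a fold of 4, with a fold over input of 4.60.

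The other 9 of the 10 highest ratios with a clonal fold of 1 or less in both lists ran from 5.35 to 9.67. At chromosome 1, 98552367 to 98552621, the tag count was 76.2 in Hec1A and 7.88 in Ishikawa, and the folds over the local region were 90.9 and 6.90. This gave the largest ratio of local folds among the named sites, 13.2. At chromosome 5, 142060525 to 142060779, the tag count was 96.0 and 10.3, and at chromosome 17, 43782807 to 43783061, it was 102.5 and 11.2. The chromosome 17 site had a fold over Ishikawa input of 43.5, which rests on 1 input tag, against a median of 5 at high-ratio sites. Its Ishikawa tag count of 11.2 was above the 9.69 of the whole Ishikawa list.

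Lower in this ranking, Ishikawa tag counts were mostly under 10. They were 6.84 at chromosome 17, 5736232 to 5736486, 5.61 at chromosome 5, 30505774 to 30506028, 8.55 at chromosome 4, 39516658 to 39516912, and 5.50 at chromosome 12, 126518363 to 126518617. The matching Hec1A tag counts were 60.0, 40.1, 55.4 and 31.5. The last 2 were at chromosome 4, 153877830 to 153878084, with 92.8 in Hec1A and 17.2 in Ishikawa, and at chromosome 2, 101741678 to 101741932, with 46.4 and 8.67. In all 10 sites the fold over the local region was at least 3.63 times higher in Hec1A, and the peak centres of both lines lay within 53 bp of each other. The 10 Ishikawa folds over the local region ranged from 4.23 to 14.4, at or near the entry level of 4 for several of them.

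**Figure D2:**
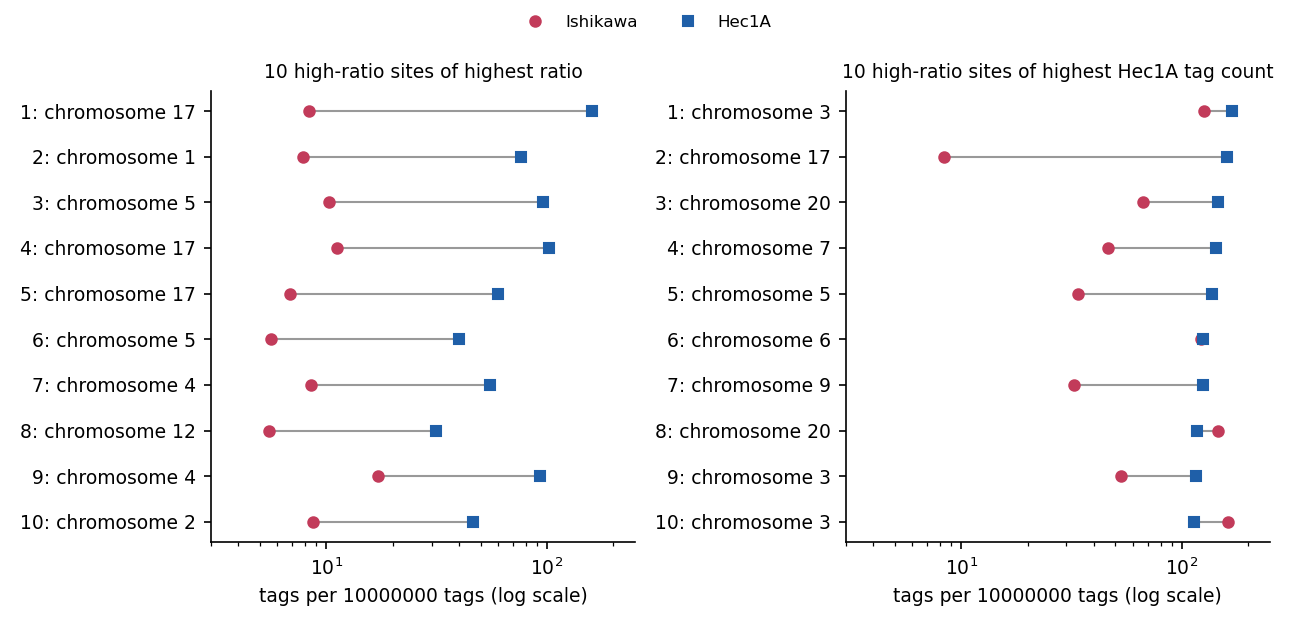
Each row is 1 high-ratio site with a clonal fold of 1 or less in both lists, numbered by rank and labelled by chromosome, and the circle and square give its Ishikawa and Hec1A tag count per 10000000 tags on a log axis. In the left panel Hec1A exceeds Ishikawa by 5.35 to 19.2 times. In the right panel the Hec1A tag counts lie between 113.6 and 167.8, and Ishikawa is higher in rows 8 and 10.

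The fold over the local region gave a further view of the same peaks, in which the tag count is divided by the local background. That background differed with the ratio as well. Its Ishikawa median was 2.25 at ratios under 0.1 and 1.22 at 2 or more, and its Hec1A median 0.787 and 1.26. Whether the division takes out signal of the sites beside a regional level was not tested. The local fold was higher in Hec1A at 801 of the 1209 high-ratio sites (66.3%, 95% Wilson interval 63.5% to 68.9%) and at 389 of the 5803 other pairs (6.70%). Among all pairs this was the case for 17.0%. The fold comes from the tags that chose the sites, so nothing is read from the difference. At the other 408 high-ratio sites the peak stood out less from its surroundings in Hec1A than in Ishikawa. The median fold was 9.36 in Hec1A and 7.50 in Ishikawa, against 5.97 and 14.4 in the other shared pairs. If the same number of pairs had been taken by the highest ratio of local folds, 808 of the 1209 sites (66.8%) would have been chosen.

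Between high-ratio sites and the other shared pairs, the focus ratio was higher where the tag count was higher in each list. The focus ratio is a fraction that the authors' caller reported for each peak, on how its tags lie about the peak centre. High-ratio sites had a median focus ratio of 0.882 in Hec1A (quartiles 0.827 and 0.929) and 0.849 in Ishikawa (0.788 and 0.900). In the other shared pairs the order was the opposite, at 0.824 in Hec1A and 0.885 in Ishikawa. Hec1A had the higher focus ratio at 837 high-ratio sites (69.2%) and at 1416 other pairs (24.4%). The Hec1A median rose to 0.943 at a ratio of 2 or more, while the Ishikawa median stayed between 0.845 and 0.863 over the 4 classes of high-ratio sites. Within these 4 classes the Ishikawa focus ratio did not follow the Ishikawa tag count. A median tag count of 10.9 at ratios of 0.6 to 0.8 went with 0.845, and 9.66 at 2 or more with 0.863. The focus ratio was computed from the same tags, and its part apart from strength was not tested.

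**Figure D3:**
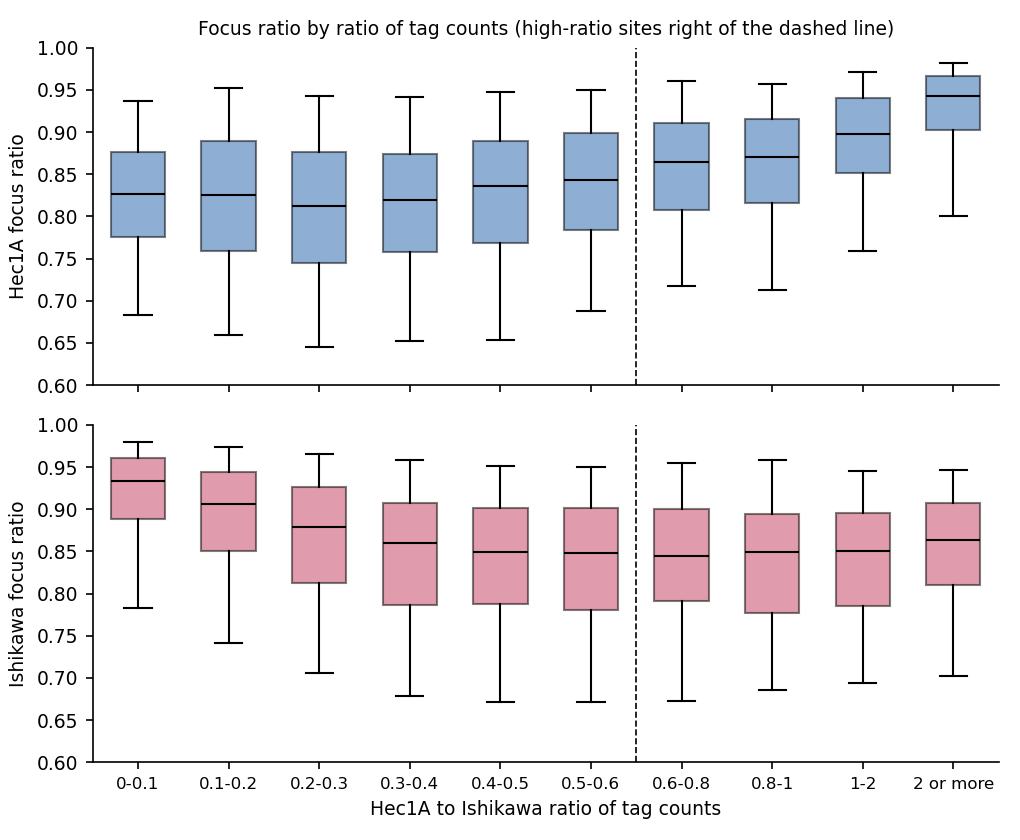
Boxes give the median and quartiles and whiskers the 5th and 95th percentiles of the focus ratio in Hec1A (top) and Ishikawa (bottom), by class of the Hec1A to Ishikawa ratio of tag counts over 7012 shared pairs. Right of the dashed line the Hec1A medians climb from 0.864 to 0.943, and left of it the Ishikawa medians fall from 0.934 to 0.848.

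The peaks of a pair had to overlap, and most had centres close together. The centres of a high-ratio site lay a median of 14 bp apart (quartiles 5 and 41), the same median as in the other shared pairs. They were within 50 bp at 965 high-ratio sites (79.8%, Wilson interval 77.5% to 82.0%) and at 82.8% of the other pairs. The 95th percentile of the distance at high-ratio sites was 136.6 bp and the largest distance 298 bp. No Hec1A or Ishikawa peak belonged to more than 1 pair, so each high-ratio site is 1 peak in each list.

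A large minority of these sites rested on stacked Hec1A tags. The clonal fold sets the number of distinct positions that the tags should occupy against the number they did occupy, and values above 1 mark tags repeated on few positions. It was above 1 in Hec1A at 408 of 1209 high-ratio sites (33.7%), at 9.13% of other shared pairs and at 28.8% of all Hec1A peaks. Seen from the other side, 43.5% of the 938 shared pairs with a Hec1A clonal fold above 1 were high-ratio sites, and 13.2% of the 6074 with a lower one. The corresponding share in Ishikawa was 13.5% of high-ratio sites and 7.03% of other pairs.

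The deposited score was lower than the tags behind the tag count at these sites. The authors' caller considered at most 7 tags per bp in Hec1A, per its header. At the 408 high-ratio sites of high clonality the Hec1A score was a median of 50% of the tags behind the tag count, and at the 801 others it was 101.0%. Those 408 sites had a median ratio of 0.880, and the 801 others 0.868. Hec1A folds over the local region were higher than in Ishikawa at 270 of the 408 (66.2%) and 531 of the 801 (66.3%). Centre distances were wider in the clonal sites, at a median of 30 bp against 10 bp. Whether repeated reads raised the ratio of a given site was not tested. With a clonal fold of 1 or less required in both lists, 709 of 5630 pairs (12.6%) were high-ratio sites.

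The highest ratios among sites with a Hec1A clonal fold above 1, which were picked after their values were seen, were at chromosome X, 81383030 to 81383284, and at chromosome 6, 85354758 to 85355012, and 16576596 to 16576850. The chromosome X site had a tag count of 52.2 in Hec1A and 4.42 in Ishikawa, a ratio of 11.8 that ranked second among all high-ratio sites. Its clonal fold was 1.41 in Hec1A and 0.940 in Ishikawa. The chromosome 6 sites had ratios of 5.64 and 4.29 and Hec1A clonal folds of 1.88 and 1.07.

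High-ratio sites passed the Ishikawa input filter by a smaller margin than other shared sites. Their median fold over input was 7.60 (quartiles 5.42 and 12.2) against 14.2, and 217 of them (17.9%) were under 5, close to the 18.5% of the whole Ishikawa list. Pooled input tags per Ishikawa peak were similar, at a median of 5 and 6. The fold over input is made from the Ishikawa tags used by the rule.

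The position of a site was not used to choose it, and the high-ratio sites were unevenly spread over the chromosomes. The largest share of shared pairs was on chromosome X, with 69 of 221 (31.2%, Wilson interval 25.5% to 37.6%). Chromosome 3 followed with 127 of 449 (28.3%, 24.3% to 32.6%) and chromosome 17 with 85 of 349 (24.4%, 20.1% to 29.1%). The smallest share was on chromosome 12, with 20 of 382 (5.24%, 3.41% to 7.95%), before chromosome 11 with 31 of 305 (10.2%, 7.25% to 14.1%) and chromosome 14 with 27 of 228 (11.8%, 8.27% to 16.7%). The intervals of chromosomes X, 3 and 17 lay above the 17.2% of all pairs and those of chromosomes 11, 12, 14 and 16 below it. Chromosome 16 had 25 of 209 pairs, with an interval of 8.23% to 17.1%. These intervals cover counting error and treat sites as independent.

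Regional tag levels moved with these shares. They were read at peaks that took no part in the rule, namely 47842 Ishikawa peaks without a partner and 3350 Hec1A peaks without a partner and whose clonal fold was at most 1. The median local background at these peaks was 0.726 in Hec1A and 1.32 in Ishikawa, a ratio of 0.550, part of which comes from the unequal peak widths. On chromosome X the Hec1A level was 0.661 and the Ishikawa level 0.714, a ratio of 0.926. On the autosomes together the Ishikawa level was 1.34 and the Hec1A level 0.731, so it was the Ishikawa level that was low on chromosome X. On chromosome 12 the Ishikawa level was 1.94 and the ratio 0.349. On chromosomes 3 and 17 it was the Hec1A level that was raised, at 0.977 and 0.959, with ratios of 0.698 and 0.719. These are medians over whole chromosomes, and chromosome 17 was not uniform. Its Hec1A level was 0.753 from 0 to 10 Mb and 1.39 from 50 to 60 Mb, where 14.9% and 40.5% of pairs were high-ratio sites. From 20 to 30 Mb the level was 1.01, yet 1 of 29 pairs was a high-ratio site.

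**Figure D4:**
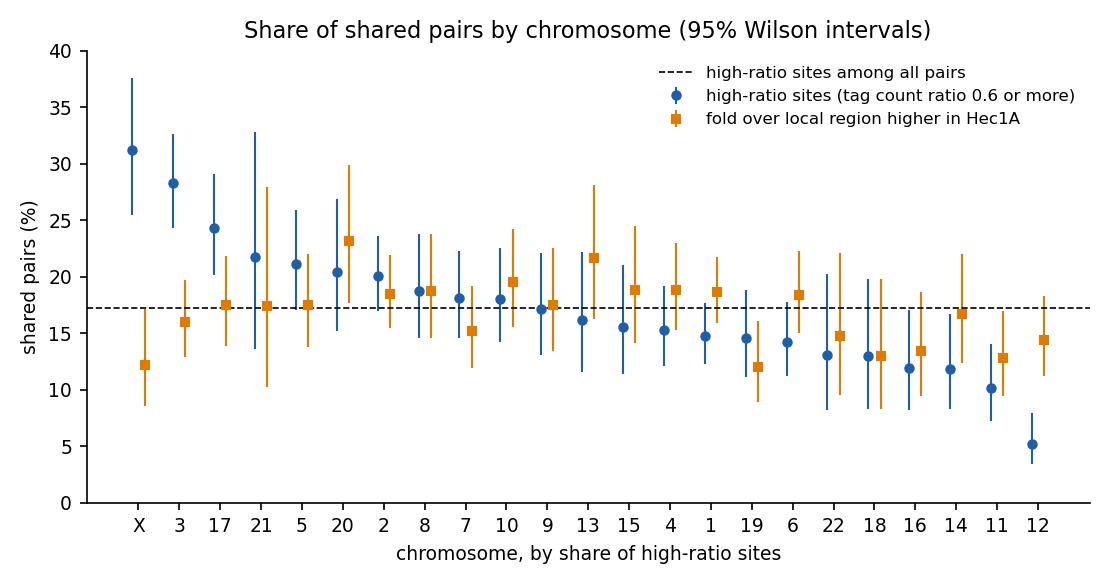
For each of 23 chromosomes, ordered by the share of high-ratio sites, circles give the percent of shared pairs that are high-ratio sites and squares the percent whose fold over the local region was higher in Hec1A, with 95% Wilson intervals. Circles run from 31.2% on chromosome X to 5.24% on chromosome 12, and squares stand at 12.2% and 14.4% there.

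By the fold over the local region, which divides by the local background at the site, the order of the chromosomes was different. The fold over the local region was higher in Hec1A at 27 of the 221 pairs on chromosome X (12.2%, 8.53% to 17.2%), which is under the 17.0% of all pairs. On chromosome 3 the share was 16.0% (12.9% to 19.7%), on chromosome 17 it was 17.5% (13.9% to 21.8%), and on chromosome 12 it was 14.4% (11.2% to 18.3%). Chromosomes 20 and 13 had the highest shares by this measure, at 23.2% (17.7% to 29.9%) and 21.6% (16.3% to 28.1%). The interval of chromosome 13 included the 17.0% of all pairs. Of the high-ratio sites, 24 of 69 on chromosome X, 62 of 127 on chromosome 3, 50 of 85 on chromosome 17 and 18 of 20 on chromosome 12 had the higher local fold in Hec1A. The rule sets much of this contrast, because the ratio of tag counts at a site is the ratio of its local folds times the ratio of its local backgrounds. Where the background ratio is low, as on chromosome 12, a site needs a high ratio of local folds to reach 0.6, so nothing is read from these counts.

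Over the 23 chromosomes, the share of high-ratio sites was higher where the background ratio was higher, with a Spearman rho of 0.734 and a Pearson r of 0.854. Without chromosomes X, 3, 12 and 17 the values were 0.530 and 0.482 over 19 chromosomes. The share of pairs with the higher local fold in Hec1A had a rho of -0.0613 and an r of -0.200 over the 23 chromosomes. These are descriptions, since the chromosomes share both pools of libraries and the local fold contains a local background of its own. The ratio of tag counts also contains the ratio of local backgrounds, which the local fold divides out. The contrast between these correlations is thus partly set by the measures, and nothing is read from it. Among pairs with a Hec1A clonal fold of 1 or less, the share of high-ratio sites was 25.1% on chromosome X, 20% on chromosome 3, 18.6% on chromosome 17 and 3.50% on chromosome 12, against 13.2% over all chromosomes. The pooled Ishikawa input differed on the chromosomes at both ends of the order. At Ishikawa peaks outside the pairs its median was 3 tags per peak on chromosome X, 7 on chromosome 12 and 5 on each of the other chromosomes. By chromosome median, the Ishikawa input was thus low on chromosome X and high on chromosome 12, as was the Ishikawa background. Chromosomes 3 and 17 had the common median of 5, but chromosome 3 was not uniform. In its 10 Mb windows from 160 to 200 Mb the input medians were 6, 7, 8 and 7 tags. The Ishikawa background there was 1.76, 2.02, 1.82 and 1.90. Hec1A input was not analysed here, and the part of DNA copy number in these shares was not tested.

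**Figure D5:**
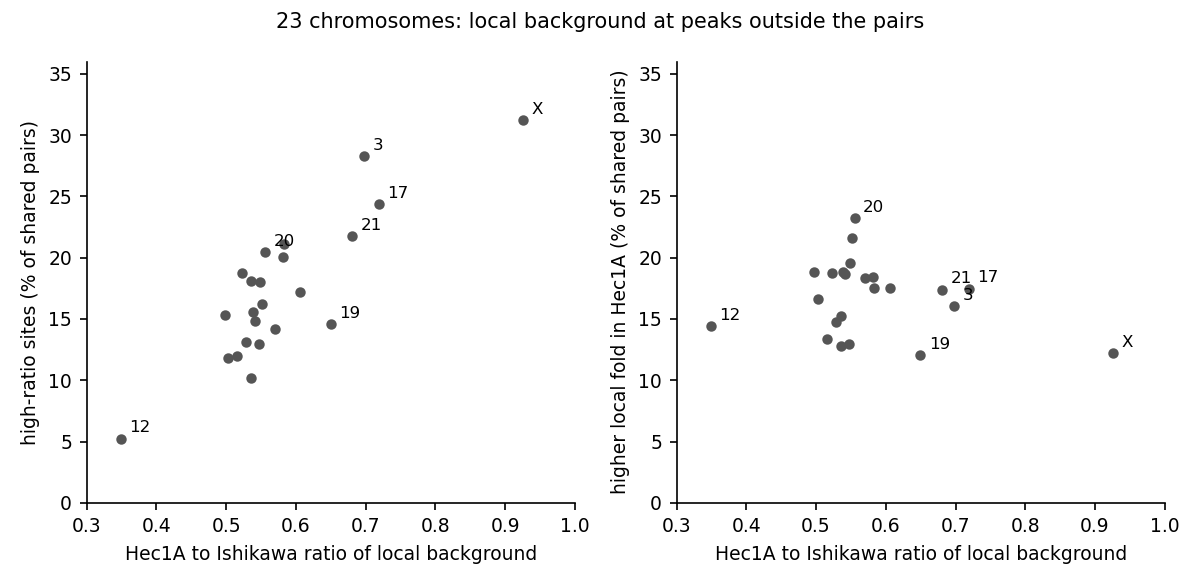
Each point is 1 of 23 chromosomes, with the Hec1A to Ishikawa ratio of median local background at peaks outside the shared pairs on the horizontal axis. The share of high-ratio sites (left, % of shared pairs) climbs from chromosome 12 to chromosome X with rho 0.734, and the share with a higher local fold in Hec1A (right) shows no such order, with rho -0.0613. The ratio of tag counts contains the ratio of local backgrounds, so this contrast is partly set by the measures.

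At a finer scale, 175 windows of 10 Mb held at least 20 shared pairs. The highest share of high-ratio sites was on chromosome 3 from 10 to 20 Mb, with 11 of 24 pairs (45.8%, Wilson interval 27.9% to 64.9%). The next were chromosome 2 from 110 to 120 Mb, with 9 of 21 (42.9%, 24.5% to 63.5%), and chromosome 17 from 50 to 60 Mb, with 15 of 37 (40.5%, 26.3% to 56.5%). The background ratio at peaks outside the pairs was 0.850, 0.821 and 1.14 in these windows, where the Hec1A medians rest on 10, 8 and 13 peaks. The local fold was higher in Hec1A at 4, 2 and 7 of their high-ratio sites.

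No high-ratio site was seen among 31 pairs on chromosome 11 from 70 to 80 Mb, 22 on chromosome 12 from 110 to 120 Mb and 21 on chromosome 1 from 160 to 170 Mb. The Wilson upper bounds of these shares were 11.0%, 14.9% and 15.5%. Background ratios there were 0.550, 0.328 and 0.551, with Hec1A medians over 15, 7 and 7 peaks. Of all 175 windows, 13 had an interval wholly above the share of 17.2% and 11 an interval wholly below it, with neighbouring sites not independent of each other.

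When high-ratio sites less than 100 kb apart were joined, 1008 stood alone, 76 runs held 2 sites, 7 held 3 and 7 held 4. The same joining was not done for the other shared pairs, so nothing about spacing is read from these counts. The 7 longest runs were equal in number, so the 2 of shortest span are described, a choice made after they were seen. The shortest lay on chromosome 17 from 57915047 to 57930821 and spanned 15.8 kb, with no other shared pair between its sites. Its 4 sites had tag counts of 12.6, 12.6, 12.9 and 21.5 in Hec1A and 17.6, 19.5, 17.7 and 31.9 in Ishikawa. All 4 ratios were thus between 0.646 and 0.729, with Ishikawa the higher line throughout. The local fold was higher in Hec1A at 2 of them, and the run lies in the window of chromosome 17 whose background ratio of 1.14 rests on 13 Hec1A peaks.

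The other run spanned 72.9 kb on chromosome 5 from 180532831 to 180605768. Its tag counts were 15, 4.89, 4.12 and 7.62 in Hec1A and 19.3, 6.25, 5.82 and 4.31 in Ishikawa. The ratios of 3 sites were between 0.708 and 0.782, and that of the last was 1.77. All 4 had a Hec1A clonal fold above 1, from 1.19 to 1.74.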

How the data were processed

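FOXA1 ChIP-seq peaks of Ishikawa and Hec1A were compared. The submitters' processing notes name HOMER 4.7.2, SAMtools 1.3.1 and Bowtie 1.1.2, with the genome build hg19. Per the labels' protocols, TruSeq and ThruPLEX library kits are mixed within each pool. HOMER findPeaks was run by the authors on pooled tags, per the file headers. The deposited signal (tag count) is scaled to 10000000 tags. Deposited focus ratios are a fraction, deposited scores count tags, and the deposited fold columns (local region, input, clonal) are a ratio each. The deposited p-values were not used.

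Overlaps, ratios, local backgrounds, 95% Wilson intervals for shares and exact binomial intervals for ratios of tags were computed with Python 3.11.15, pandas 2.3.3, SciPy 1.17.1 and statsmodels 0.14.6. Tags behind a tag count were recovered by multiplying with the pool's total and rounding. Medians were called moved when outside their order-statistic 95% interval. The pairing step was tested on simulated peaks. Named sites are the 10 of highest ratio and the 10 of highest Hec1A tag count with a clonal fold of 1 or less in both lists, and 3 on each side of the threshold. Chromosomes and 10 Mb windows with at least 20 pairs are named for the 3 highest and 3 lowest shares. Members and lists were chosen with earlier results of these data known. The local fold of 1 or more, the background at unpaired peaks and the windows' background were added after the data were seen. The planned DNA sequence and gene analyses were not run.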

Additional observations from a re-analysis of the deposited data

How the results depend on the processing

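Of 94 alternative values, 45 stayed within the interval of the main value, or within 1.5 times for a count, and 49 did not. The number of high-ratio sites was 1173 of 6825 pairs (17.2%) with at least 50% of the Hec1A interval shared. At a ratio of 0.5 it was 1638 of 7012 (23.4%). One-to-one pairs left the number at 1209, which was fixed beforehand, since no peak belonged to more than 1 pair. A ratio of local folds of 1 or more, chosen after the data were seen, gave 1190 pairs (17.0%). The similar number does not mean the same sites, since 801 of the 1209 were among them. The number moved to 714 (10.2% of all pairs) at a ratio of 0.8, 459 (6.55%) at 1.0 and 2054 (29.3%) per bp of peak width. With local folds of 8 or more in both lists it was 461 of 2075 pairs (22.2%). At a clonal fold of 1 or less in both lists it was 709 of 5630 (12.6%). A ratio of local folds of 0.6 or more gave 2973 (42.4% of all pairs). The filters on local and clonal folds leave fewer pairs, and the share of high-ratio sites rose with the former from 17.2%. Local folds are made from the tags that chose the sites. Their median in Hec1A was 9.36 at high-ratio sites and 5.97 in the other pairs, so nothing is read from this rise.

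At a ratio of 0.5, shares of pairs on chromosomes X, 3, 17, 11 and 12 were 41.6%, 35%, 32.7%, 16.4% and 8.38%. At 0.8 they were 19.9%, 16.5%, 14.0%, 6.23% and 3.14%. At 1.0 they were 13.6%, 11.8%, 9.74%, 5.57% and 1.83%. Over all pairs the shares were 23.4%, 10.2% and 6.55% at 0.5, 0.8 and 1.0. A change with the threshold is thus not particular to a chromosome. Chromosome 14 moved to 7.89% at 0.8 and 5.26% at 1.0. At a local fold of 8 or more, chromosomes X, 17, 11 and 12 had 38.2%, 33.7%, 16.0% and 8.4%, against 22.2% over all chromosomes. At a clonal fold of 1 or less, chromosomes 3, 17, 11 and 12 had 19.2%, 17.9%, 6.07% and 3.12%, against 12.6%. By a ratio of local folds of 1 or more, chosen after the data were seen, chromosomes X, 3, 17 and 12 had 12.2%, 16.0%, 17.5% and 14.4%. Over all pairs this share was 17.0%. Chromosome X thus fell under chromosome 12, though their Wilson intervals of 8.53% to 17.2% and 11.2% to 18.3% overlapped. The cause was not tested.

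The median local background of high-ratio sites was 0.973 in Hec1A and 1.26 in Ishikawa, against 0.787 and 1.54 in the other pairs. The median Hec1A focus ratio was 0.874, 0.894 and 0.910 at ratios of 0.5, 0.8 and 1.0, and the median Hec1A local background 0.940, 1.02 and 1.09. The Ishikawa local background was 1.23 at 1.0 and 1.29 at a clonal fold of 1 or less, where the centre distance was 10 bp. At a local fold of 8 or more, focus ratios were 0.919 in Hec1A and 0.892 in Ishikawa, the centre distance 7 bp, input tags 6 and the fold over input 10.9.

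Depth limits the placing of single sites, as 405 sites have counting intervals that reach below 0.6. Leaving out libraries, gene positions and motifs were not run, since the lists are pooled and an hg19 genome and annotation were not used here. No paired analysis was possible because both lists hold pooled libraries.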

Other observations

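The surroundings of the high-ratio sites were measured as the number of other listed peaks within 50 kb of the centre. High-ratio sites had a mean of 2.41 other Ishikawa peaks nearby and the other shared pairs 2.62, with a median of 2 in both. No other Ishikawa peak lay within 50 kb at 172 high-ratio sites (14.2%, 95% Wilson interval 12.4% to 16.3%) and at 593 other pairs (10.2%, 9.47% to 11.0%). For Hec1A peaks the means were 0.921 and 0.834, and 46.6% of high-ratio sites (43.8% to 49.4%) and 49.4% of other pairs (48.2% to 50.7%) had no other Hec1A peak nearby. The number of peaks nearby depends on where each list begins, and no test was made.

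A run of 4 sites on chromosome 3 from 101899451 to 102074294 had ratios of 1.31 to 2.30, so Hec1A was the higher line at each of them. Its tag counts were 36.3, 22.6, 11.6 and 11 in Hec1A and 15.8, 17.3, 7.51 and 6.92 in Ishikawa. The local fold was higher in Hec1A at 3 of the 4 sites, and 2 of the 4 had a Hec1A clonal fold above 1. A run on chromosome 20 from 49258535 to 49378536 held a site with 46.1 in Hec1A and 17.2 in Ishikawa beside 3 sites with ratios of 0.653 to 0.907. Both runs were picked after their values were seen.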
